A study of Mus musculus with 12 samples.

Results

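The chaperones and foldases of the endoplasmic reticulum (ER) are represented here by 10 genes, Hspa5, Hsp90b1, Hyou1, Manf, Sdf2l1, Pdia3, Pdia4, Pdia6, Dnajb9 and Creld2. Every probe set that the array annotation pairs with 1 of these symbols was taken, which gave 11 probe sets for the 10 genes, of 19938 genes tested on the array. Pdia4 has 2 probe sets, and the other members have 1 each. The members were chosen with earlier results of these data known, so their counts beside the share of all genes are a description. In the liver of SIRT3 knockout (KO) mice, 7 of the 10 genes had lower values on a high-fat diet than on a standard diet, by 1.38-fold to 2.32-fold, where 2.66% of all genes were called lower. In wild-type (WT) mice 0 of the 10 passed the same test, with 1.69% of all genes called lower. The difference between these diet effects, the interaction of genotype and diet, passed for 0 of the 10 and for 0% of all genes. The deposited values of the diets appear to come from separate normalization runs, and with a variance for an offset between runs added 0 of the 7 calls stood, and over all genes 5 were called in place of 1018.

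Expression was measured on 12 Affymetrix whole-transcript arrays of total RNA from whole liver. The groups were SIRT3KO mice given a Western diet high in fat (42% fat) from weaning, SIRT3WT mice on that diet, SIRT3KO mice on a standard diet and SIRT3WT mice on a standard diet, with 3 arrays in each. All mice were of the 129Sv strain, 12 weeks old and fasted for 24 h before they were killed. SIRT3 is a deacetylase of mitochondrial proteins, and the series addresses how diet alters liver expression in mice with and without it. Replicates are called by the numbers in the labels. Nothing in the labels says that each array is 1 animal, so p-values measure the spread between these samples.

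Secreted and membrane proteins enter the ER unfolded, and chaperones hold them, add disulfide bonds and refold them before they move on to the Golgi. Hepatocytes secrete most plasma proteins and carry a large ER. When unfolded protein builds up, the sensors IRE1, PERK and ATF6 start the unfolded protein response, and the transcription factors ATF6 and XBP1 raise the genes of the folding machinery. Many of these genes carry the ER stress response element (ERSE) before their start site, in which the factor NF-Y binds the first part and ATF6 or XBP1 the second. The array reads mRNA only and does not report the protein or the state of the sensors.

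Promoters are shown because many genes of the folding machinery are known to carry the ERSE. The members were chosen as such genes, so its share among them is a description. Whether the element bears on their values was not tested. RefSeq windows of 250 bases before to 50 after the start site, on build GRCm38.p6, were at hand for 8 of the members. The exact element, which reads CCAAT, 9 free bases and CCACG on either strand, stood in 4 of the 8 windows. It stood in 35 of the 27025 windows of all genes, 0.13%. The stretches below run in the direction of the gene, positions are counted from the start site, and the capitals mark the fixed bases of each exact element. Where the element lies on the opposite strand, the capitals read CGTGG and then ATTGG.
Hspa5, chr2:34771840-34772089, plus strand, bases -250 to -1: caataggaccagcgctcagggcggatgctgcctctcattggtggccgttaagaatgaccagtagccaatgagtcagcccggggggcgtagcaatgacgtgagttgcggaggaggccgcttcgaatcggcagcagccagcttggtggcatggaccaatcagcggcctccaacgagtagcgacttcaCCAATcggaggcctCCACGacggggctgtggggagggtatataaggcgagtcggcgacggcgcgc
Hsp90b1, chr10:86705513-86705676, minus strand, bases -232 to -69: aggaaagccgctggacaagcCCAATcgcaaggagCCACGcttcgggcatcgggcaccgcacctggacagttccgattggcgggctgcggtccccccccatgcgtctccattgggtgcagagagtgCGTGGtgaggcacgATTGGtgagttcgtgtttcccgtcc
Pdia6, chr12:17266439-17266558, plus strand, bases -150 to -31: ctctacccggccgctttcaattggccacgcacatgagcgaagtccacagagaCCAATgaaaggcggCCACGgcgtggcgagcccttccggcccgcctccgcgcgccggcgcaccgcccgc
Creld2, chr15:88819396-88819645, plus strand, bases -250 to -1: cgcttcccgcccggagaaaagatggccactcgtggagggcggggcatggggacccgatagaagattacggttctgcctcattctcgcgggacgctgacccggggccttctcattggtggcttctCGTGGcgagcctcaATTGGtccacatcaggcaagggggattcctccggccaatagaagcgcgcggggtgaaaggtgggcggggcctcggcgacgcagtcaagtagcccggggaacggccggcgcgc
Sdf2l1, chr16:17132384-17132633, minus strand, bases -250 to -1: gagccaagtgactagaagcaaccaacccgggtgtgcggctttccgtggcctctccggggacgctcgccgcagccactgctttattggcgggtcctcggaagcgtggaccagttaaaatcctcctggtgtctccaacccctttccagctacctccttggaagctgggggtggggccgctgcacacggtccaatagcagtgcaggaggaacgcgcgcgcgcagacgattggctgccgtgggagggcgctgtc
Dnajb9, chr12:44210069-44210318, minus strand, bases -250 to -1: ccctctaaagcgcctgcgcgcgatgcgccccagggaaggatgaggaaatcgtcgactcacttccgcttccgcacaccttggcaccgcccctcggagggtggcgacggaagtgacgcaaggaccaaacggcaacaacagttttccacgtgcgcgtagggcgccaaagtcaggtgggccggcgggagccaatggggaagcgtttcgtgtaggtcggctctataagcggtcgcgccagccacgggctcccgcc

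The element of Hspa5 lay at -65 to -47, and that of Pdia6 at -98 to -80. Hsp90b1 held 2, at -212 to -194 and, on the opposite strand, at -107 to -89. Creld2 held 1 on the opposite strand, at -126 to -108. With 1 of the 10 fixed bases allowed to differ, a search added after values were seen, Pdia3 (-29 to -11) and Pdia4 (-108 to -90) also held the element, so that 6 of the 8 windows had it, against 1.52% of all windows. Sdf2l1 and Dnajb9 held neither form. Both are printed for that reason, and Sdf2l1 held the second part, CCACG, alone at 3 places, and Dnajb9 at 2. That short piece stood in 7 of the 8 members and in 32.7% of all windows. The core TGACGTG, a sequence bound by XBP1 and ATF6, stood in Hspa5 alone, at -157 to -151, and in 1.99% of all windows. The related element ERSE II was in 0 of the 8 windows and in 0.037% of all. These matches describe letters in a window and not binding.

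Several features of the whole set bear on what follows. The deposited values point to separate normalization runs for the diets: 335 probe sets have no value on any standard-diet array, and pairs of arrays share a median of 20 identical values within the standard diet, 7 within the high-fat diet and 0 between diets. If so, a comparison of genotypes lies within a run and a comparison of diets across runs. The interaction draws on both runs. An offset of a gene between them cancels in it only where it is the same in both genotypes, and it may differ from gene to gene. The labels do not name runs. On KO standard-diet replicate 1 a list of 26 acute-phase genes lay 1.13 above its mean on the log2 scale, against -0.32 to 0.24 on the other 11 arrays. That array was also low for the Y-linked genes Eif2s3y (7.55, against 8.19 to 9.14 on the other arrays) and Uty (6.51, against 7.43 to 8.17), while Xist was between 4.31 and 4.80 on all 12, and the labels give no sex. The low ends of these ranges are those of KO standard-diet replicate 2, and the 9 arrays of the other groups had 8.68 to 9.07 for Eif2s3y and 7.61 to 8.17 for Uty. On WT high-fat replicate 3 a list of 13 macrophage and Kupffer cell markers lay 0.45 above its mean, against -0.14 to 0.14 elsewhere. The 13 measured hepatocyte markers had mean values of 11.70 to 14.14, among them albumin, with a median of 6.70 over all genes. Sirt3 itself had 8.92, 8.49 and 8.87 in high-fat KO livers and 9.29, 9.14 and 9.13 in high-fat WT livers. It had 8.83, 8.94 and 8.95 in standard-diet KO livers and 8.97, 9.04 and 9.13 in standard-diet WT livers. Its probes may lie outside the deleted part, so this signal does not check the labels.

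**Figure D1:**
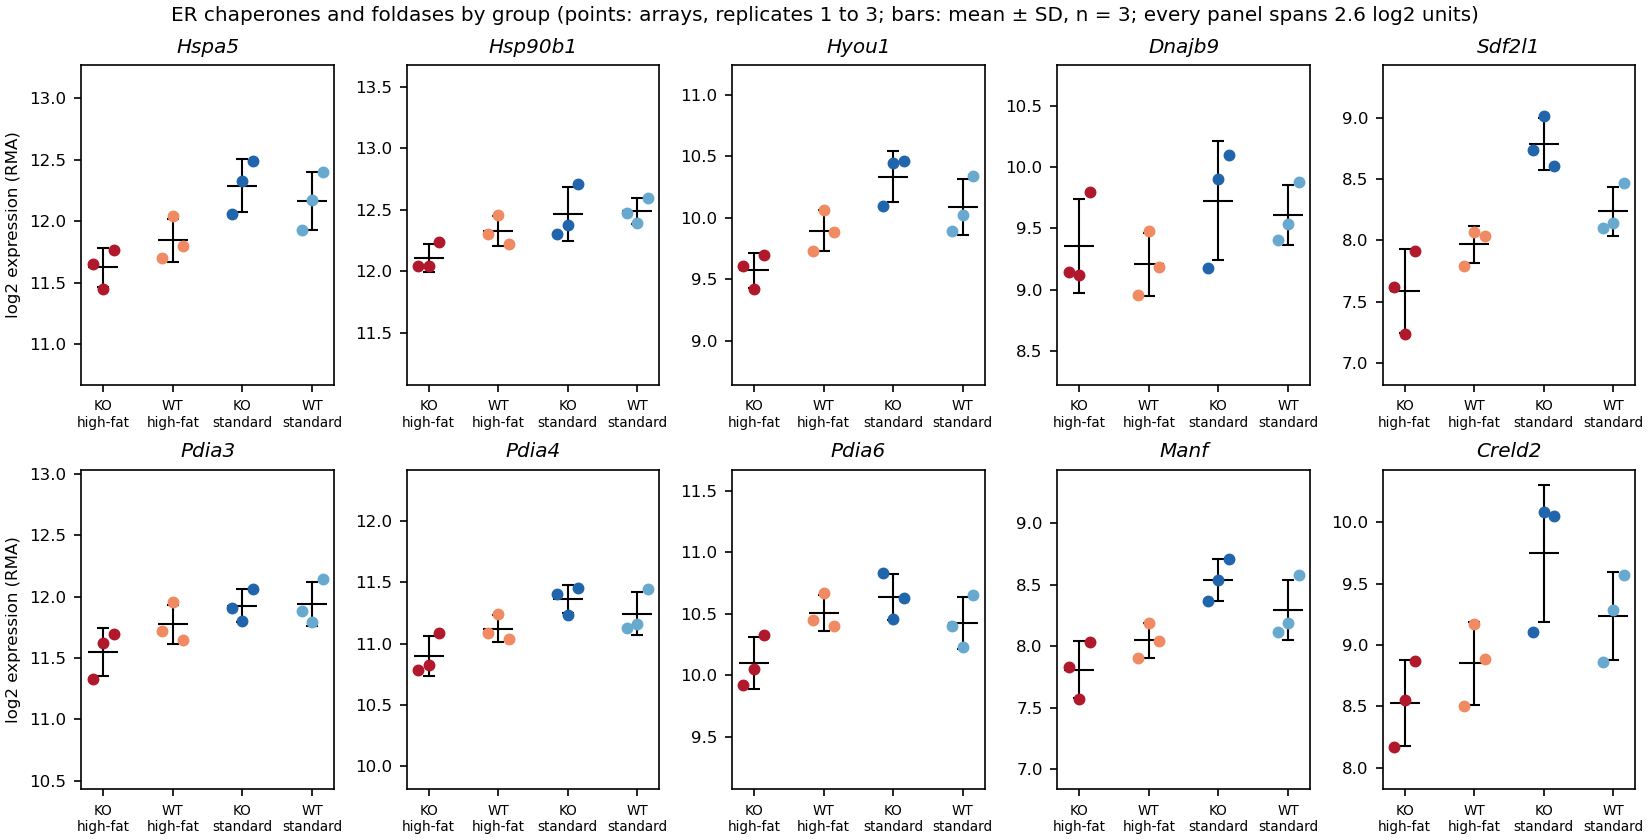
Log2 expression (RMA, y axis) of the 10 genes on each array, by genotype and diet (x axis); points are arrays in replicate order from left to right, bars are the mean and SD of 3 arrays, and every panel spans the same range of log2 units. The high-fat KO mean is the lowest of the 4 groups in every panel except Dnajb9, where the high-fat WT mean is.

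The pattern was shared by most of the set. The lowest of the 4 group means was that of the high-fat KO livers for 9 of the 10 genes, and for Dnajb9 that of the high-fat WT livers. The highest was that of the standard-diet KO livers for 8 genes, and that of the standard-diet WT livers for Hsp90b1 and Pdia3. For all genes but Hsp90b1, Pdia3 and Dnajb9 the KO livers thus lay at both ends, with the WT livers between them, as the plot of values by group shows. In whole liver, fewer cells of a type and less RNA per cell cannot be told apart. The following values are log2 levels on each array in replicate order, differences are log2 differences with the SE of a limma fit to all 12 arrays, and adjusted p-values are Benjamini-Hochberg values over all 19938 genes.

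The central chaperones are Hspa5, Hsp90b1 and Hyou1. Hspa5 encodes BiP, the Hsp70 of the ER lumen, which binds unfolded chains and also holds the stress sensors inactive. It had 11.65, 11.45 and 11.77 in high-fat KO livers, 11.70, 12.04 and 11.80 in high-fat WT livers, 12.06, 12.33 and 12.49 in standard-diet KO livers and 11.93, 12.17 and 12.40 in standard-diet WT livers. All high-fat KO values lay below all standard-diet values of either genotype, while the KO and WT groups on the high-fat diet overlapped. In KO livers Hspa5 fell by 0.67 on the high-fat diet (SE 0.136, limma adjusted p = 0.0131), which is 1.59-fold lower. In WT livers the difference was -0.32 (SE 0.136, limma adjusted p = 0.178), and the interval at 95% ran from -0.61 to -0.03. The KO call ended without high-fat KO replicate 2, which was the lowest array (-0.58, limma adjusted p = 0.0678).

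Hsp90b1 encodes GRP94, the Hsp90 of the ER, which folds integrins and Toll-like receptors. It had 12.04, 12.04 and 12.24 in high-fat KO livers, 12.30, 12.45 and 12.22 in high-fat WT livers, 12.30, 12.38 and 12.71 in standard-diet KO livers and 12.47, 12.39 and 12.60 in standard-diet WT livers. The diets did not overlap in KO livers, though the gap was small. The KO difference of -0.36 (SE 0.108, limma adjusted p = 0.0714) did not pass, but it did after quantile normalization of all arrays together (limma adjusted p = 0.0315) and without the 2 arrays that stood apart. In WT livers it was -0.16 (SE 0.108, limma adjusted p = 0.40).

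Hyou1 encodes a large Hsp70-related protein that serves BiP as a nucleotide exchange factor. It had 9.61, 9.42 and 9.70 in high-fat KO livers, 9.73, 10.07 and 9.88 in high-fat WT livers, 10.10, 10.45 and 10.47 in standard-diet KO livers and 9.90, 10.02 and 10.34 in standard-diet WT livers. Its high-fat KO values lay below those of every other array. Hyou1 fell by 0.76 in KO livers on the high-fat diet (SE 0.133, limma adjusted p = 0.00577), 1.70-fold lower, and this call stood without any single array. The WT difference was -0.19 (SE 0.133, limma adjusted p = 0.418).

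Dnajb9 and Sdf2l1 are partners of BiP. Dnajb9 encodes ERdj4, a J-domain protein that brings BiP to the sensor IRE1. It had 9.15, 9.12 and 9.80 in high-fat KO livers, 8.96, 9.48 and 9.18 in high-fat WT livers, 9.18, 9.90 and 10.09 in standard-diet KO livers and 9.40, 9.54 and 9.88 in standard-diet WT livers. The KO groups overlapped, since high-fat replicate 3 was high and standard-diet replicate 1 low. Its diet difference was -0.37 in KO livers (SE 0.226, limma adjusted p = 0.368) and -0.40 in WT livers (SE 0.226, limma adjusted p = 0.315), and neither passed.

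Sdf2l1 encodes a small ER protein that forms a complex with J-domain proteins and limits aggregation. It had 7.62, 7.24 and 7.92 in high-fat KO livers, 7.79, 8.07 and 8.04 in high-fat WT livers, 8.73, 9.02 and 8.61 in standard-diet KO livers and 8.10, 8.15 and 8.46 in standard-diet WT livers. The standard-diet KO arrays were the 3 highest of the 12, and the diets did not overlap in either genotype. Sdf2l1 fell by 1.19 in KO livers on the high-fat diet (SE 0.160, limma adjusted p = 0.0013), 2.29-fold lower, and kept the call without any single array. In WT livers the difference was -0.27 (SE 0.160, limma adjusted p = 0.338).

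The foldases are protein disulfide isomerases. Pdia3 encodes ERp57, which works with calnexin and calreticulin on glycoproteins. It had 11.33, 11.62 and 11.69 in high-fat KO livers, 11.72, 11.95 and 11.65 in high-fat WT livers, 11.91, 11.80 and 12.06 in standard-diet KO livers and 11.88, 11.79 and 12.14 in standard-diet WT livers. The diets did not overlap in KO livers. The KO difference of -0.38 (SE 0.120, limma adjusted p = 0.0841) did not pass in the fit to all groups and did after quantile normalization (limma adjusted p = 0.0245). In WT livers it was -0.16 (SE 0.120, limma adjusted p = 0.445).

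Pdia4 encodes ERp72, an isomerase with several thioredoxin-like domains. It had 10.78, 10.83 and 11.09 in high-fat KO livers, 11.09, 11.24 and 11.03 in high-fat WT livers, 11.41, 11.23 and 11.45 in standard-diet KO livers and 11.13, 11.16 and 11.45 in standard-diet WT livers. The KO diet groups did not overlap, whereas KO and WT livers on the high-fat diet did. Pdia4 fell by 0.46 in KO livers on the high-fat diet (SE 0.108, limma adjusted p = 0.025), 1.38-fold lower, and the WT difference was -0.12 (SE 0.108, limma adjusted p = 0.54). The KO call ended without standard-diet KO replicate 1 (limma adjusted p = 0.0684) or 3 (0.0545) and without high-fat KO replicate 1 (0.0693) or 2 (0.0995). It also ended with the compared groups only (0.0651) and with each array centred on its median (0.0605). The dimmer Pdia4 probe set, with a mean of 8.05, gave -0.15 for the same comparison. It lay lower in KO than in WT livers on both diets, by -0.44 on the high-fat and -0.27 on the standard diet, so the 2 probe sets disagree about the sign on the standard diet.

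Pdia6 encodes P5, an isomerase that binds BiP and IRE1. It had 9.92, 10.05 and 10.33 in high-fat KO livers, 10.45, 10.67 and 10.40 in high-fat WT livers, 10.83, 10.46 and 10.62 in standard-diet KO livers and 10.40, 10.23 and 10.65 in standard-diet WT livers. High-fat KO livers lay below high-fat WT livers without overlap, and the WT diet groups lay over each other. Pdia6 fell by 0.54 in KO livers on the high-fat diet (SE 0.132, limma adjusted p = 0.0314), 1.45-fold lower. The WT difference was 0.08 (SE 0.132, limma adjusted p = 0.774), the only one above 0 in the set, and with each array centred on its median it was -0.0022. The KO call ended without standard-diet KO replicate 1 (limma adjusted p = 0.105), high-fat KO replicate 1 (0.0896) or high-fat KO replicate 2 (0.107). It also ended with the compared groups only (0.0712) and with each array centred on its median (0.0576).

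Manf and Creld2 encode secreted or retained ER proteins that rise with ER stress. Manf binds BiP and can leave the cell as a trophic factor. It had 7.83, 7.57 and 8.03 in high-fat KO livers, 7.90, 8.19 and 8.05 in high-fat WT livers, 8.37, 8.54 and 8.71 in standard-diet KO livers and 8.12, 8.19 and 8.58 in standard-diet WT livers. All high-fat KO values lay below all standard-diet values. Manf fell by 0.73 in KO livers on the high-fat diet (SE 0.143, limma adjusted p = 0.0113), 1.66-fold lower, and the call ended without high-fat KO replicate 2 (limma adjusted p = 0.0569). In WT livers the difference was -0.25 (SE 0.143, limma adjusted p = 0.323).

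Creld2 encodes a cysteine-rich protein of the ER whose role is less settled. It had 8.17, 8.55 and 8.87 in high-fat KO livers, 8.50, 9.17 and 8.88 in high-fat WT livers, 9.11, 10.09 and 10.05 in standard-diet KO livers and 8.86, 9.28 and 9.57 in standard-diet WT livers. Standard-diet KO replicates 2 and 3 stood above all other arrays, and replicate 1 lay among the WT values. Creld2 fell by 1.22 in KO livers on the high-fat diet (SE 0.257, limma adjusted p = 0.0159), 2.32-fold lower, the largest difference in the set with the largest SE. The WT difference was -0.39 (SE 0.257, limma adjusted p = 0.402). The KO call ended without standard-diet KO replicate 2 (limma adjusted p = 0.0682), high-fat KO replicate 1 (0.0532) or high-fat KO replicate 2 (0.0556).

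**Figure D2:**
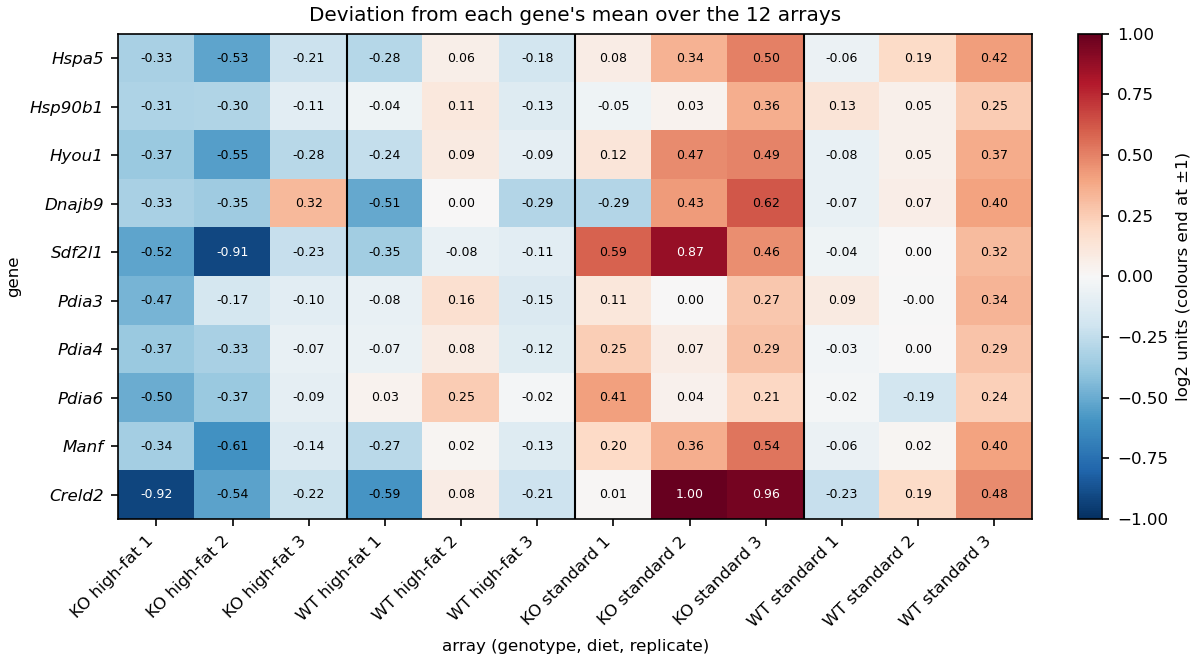
Deviation of each gene (rows) from its own mean over the 12 arrays (columns), in log2 units, with lines between the groups. High-fat KO replicates 1 and 2 and high-fat WT replicate 3 are below the mean for all 10 genes, and standard-diet KO replicates 2 and 3 and standard-diet WT replicate 3 above it for all 10.

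On each array most of the 10 genes lay on the same side of their own means. They were not uniform: on standard-diet KO replicate 1 they ran from -0.29 to 0.59. The mean deviation of the 10 genes from their own means was -0.45, -0.47 and -0.11 in high-fat KO livers, -0.24, 0.08 and -0.14 in high-fat WT livers, 0.14, 0.36 and 0.47 in standard-diet KO livers and -0.04, 0.04 and 0.35 in standard-diet WT livers. The KO diet groups did not overlap on this mean, and the WT diet groups did. After each group's mean was taken out, the 45 pairs of members had a median Pearson r of 0.63 (0.14 to 0.97) over the 12 arrays. These points share RNA samples and normalization, so the correlation is a description. Manf (r = 0.926), Dnajb9 (0.914), Hyou1 (0.906) and Hspa5 (0.904) followed the mean of the other 9 members most closely, and Pdia6 (0.449) and Sdf2l1 (0.575) least. Dnajb9 thus moved with the others from array to array within a group while its diet difference in KO livers did not pass.

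The 5 other genes whose deviations within groups were most like the members' mean over the 12 arrays were Spen (r = 0.951), Fiz1 (0.944), Urb1 (0.942), Lbr (0.942) and Unc50 (0.938). Their Spearman correlations lay between 0.825 and 0.958. None of the 5 was called for diet in KO livers, where their differences were between -0.22 (Lbr) and 0.25 (Fiz1). These 5 were chosen for their likeness within groups, and nothing about their function is implied.

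Diet within the KO genotype was the comparison in which members passed. Of the 10 genes, 7 fell on the high-fat diet, Hspa5, Hyou1, Manf, Sdf2l1, Pdia4, Pdia6 and Creld2 (limma, adjusted p under 0.05), and over all genes 2.66% were called lower. Since the members were chosen with earlier results of these data known, that contrast describes the set and does not test it. All 10 differences were below 0, where 52.3% of all genes were, and the median was -0.60 against -0.01 over all genes. For 9 genes, all but Dnajb9, no high-fat KO array reached a standard-diet KO array, a pattern seen for 13.2% of all genes. With 1 array left out in turn, the median stayed between -0.71 and -0.55 and all 10 differences stayed below 0, and the number of calls was between 2 and 7. The lowest count, 2, came without high-fat KO replicate 2, where the calls over all genes were 360 in place of 1018. Without high-fat KO replicate 1 there were 4, with 873 over all genes. Without both arrays that stood apart, 6 members were called, Pdia4 and Pdia6 no longer among them and Hsp90b1 added. The calls over all genes in that fit are not given here.

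If the diets were normalized apart, the calls for diet lie across the runs. As a measure of an offset between the runs, 1244 genes of olfactory, vomeronasal, taste and trace amine receptors, which liver should not express, were compared in the same way. These probe sets are dim, with a median level of 4.23, while the members' means were 8.15 to 12.35, and whether bright probe sets share their offset was not tested. Of these, 4.98% were called lower on the high-fat diet in KO livers and 2.89% in WT livers. In either direction 7.64% were called in KO livers and 11.2% in WT livers, where 5.11% and 5.99% of all genes were. The offset they shared in both genotypes had an SD of 0.214 on the log2 scale. With that variance added, a setting chosen after the data were seen, 0 members passed in KO livers, and over all genes 5 were called in place of 1018, so the loss was not one of the members alone. In that setting p-values came from a t test with the limma SE widened by the added variance. The Benjamini-Hochberg adjusted p of this t test was 0.326 for Sdf2l1 and 0.835 for Creld2. The size of the differences is the same in that setting, and an offset of a given gene between runs and its response to diet cannot be told apart here.

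In WT livers 9 of the 10 differences were below 0 (41.8% of all genes), with a median of -0.22 against 0.04 over all genes. Of the 10, 0 were called, with 1.69% of all genes called lower, and the limma adjusted p-values were between 0.178 and 0.774. At an unadjusted p under 0.05 stood 1 member, Hspa5, with 7.58% of all genes lower at that level. Sdf2l1 was the member whose WT diet groups did not overlap, as for 10.9% of all genes. With 1 array left out the median was between -0.31 and -0.11, and it was -0.11 without standard-diet WT replicate 3, and 0 members stood lower at an unadjusted p under 0.05 without high-fat WT replicate 1 or 3 or standard-diet WT replicate 2 or 3. The largest WT differences were those of Dnajb9 (-0.40), Creld2 (-0.39) and Hspa5 (-0.32).

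**Figure D3:**
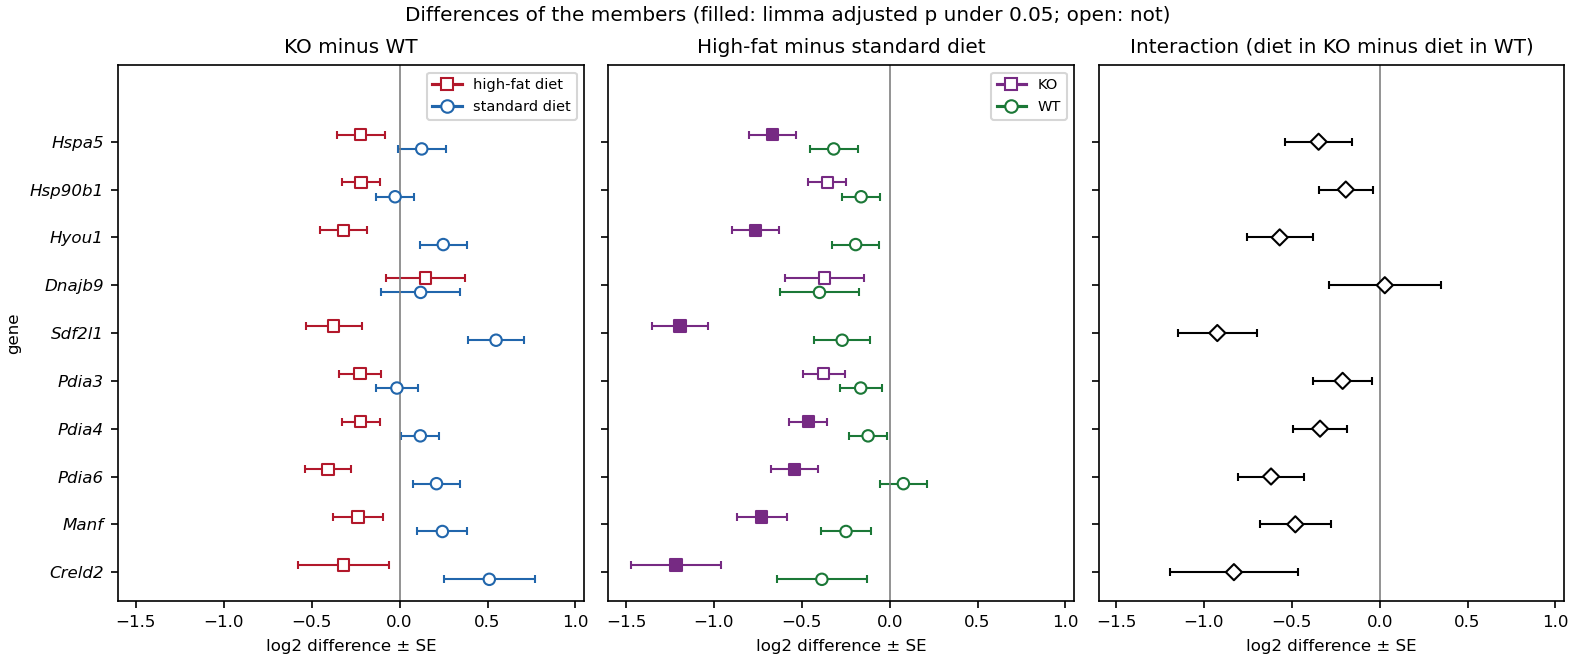
Log2 differences with the SE of the limma fit (x axis) for the 10 genes (y axis); the panels give KO minus WT by diet, high-fat minus standard diet by genotype, and the interaction, and filled symbols have an adjusted p under 0.05. In the KO diet comparison 7 genes have filled symbols, and for all genes but Dnajb9 the KO minus WT difference lies further left on the high-fat diet than on the standard diet.

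Genotype on the high-fat diet was compared among arrays that appear to share 1 run. High-fat KO livers had lower values than high-fat WT livers for 9 of the 10 genes, where 56.9% of all genes lay lower, with a median of -0.23 against -0.02 over all genes. Of the 10, 0 were called (limma adjusted p = 1 for each), and 0% of all genes were. At an unadjusted p under 0.05 stood 3 members, all lower, where 1.95% of all genes stood. That count was 1 without high-fat KO replicate 2 or high-fat WT replicate 2, 2 without high-fat KO replicate 1 and 7 without high-fat KO replicate 3. The share of all genes at that level was not computed for these fits. With all arrays the 3 members were Pdia6 (-0.41, SE 0.132), Hyou1 (-0.32, SE 0.133) and Sdf2l1 (-0.38, SE 0.160). Pdia6 and Hyou1 were lower in every high-fat KO array than in any high-fat WT array, as 4.27% of all genes were. The other differences below 0 were those of Creld2 (-0.32), Manf (-0.24), Pdia3 (-0.23), Hspa5 (-0.22), Pdia4 (-0.22) and Hsp90b1 (-0.22). Dnajb9 was at 0.15 (SE 0.226), and without high-fat KO replicate 3 at -0.07.

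Markers of other cell types were set beside this comparison. On the high-fat diet, 10 of 13 macrophage and Kupffer cell markers, 10 of 11 stellate cell and fibroblast markers and 10 of 10 endothelial markers also lay lower in KO than in WT livers, with medians of -0.19, -0.16 and -0.06 and 0 called. The mean level of the macrophage list was between 8.14 and 8.24 in high-fat KO livers and between 8.14 and 8.70 in high-fat WT livers, the top value being that of replicate 3. Without that array the members' median was -0.28, further from 0 than with it. The hepatocyte list differed by a median of -0.004. The part of the other markers in the result was not tested.

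On the standard diet the sign of most members turned. KO livers had higher values than WT livers for 8 of the 10 genes and lower values for 2. Over all genes 39.8% lay lower in KO livers, so most genes also lay higher. The members' median was 0.17 against 0.04 over all genes. Of the 10, 0 were called, with 0.00502% of all genes called, and the limma adjusted p-values were between 0.502 and 0.975. Sdf2l1 was at 0.55 (SE 0.160, limma adjusted p = 0.502). It was the member at an unadjusted p under 0.05, where 7.12% of all genes were higher, and its groups did not overlap, as for 9.88% of all genes. Creld2 was at 0.51 (SE 0.257), with 1 KO array among the WT values, and Hyou1 (0.25) and Manf (0.24) came next. Hsp90b1 (-0.03) and Pdia3 (-0.02) were near 0, and the sign of each turned with 1 array left out. Standard-diet KO replicate 1 stood apart in acute-phase genes, and 24 of the 26 acute-phase genes were higher in KO livers on this diet (median 0.28, 0 called). Without it and WT high-fat replicate 3, the members' median was 0.29, further from 0 than with both. It was 0.11 without standard-diet WT replicate 1, 0.12 without standard-diet KO replicate 3 and 0.09 with each array centred on its median. Other markers were higher in KO livers on this diet too, with 0 called: 12 of 13 for macrophages and Kupffer cells (median 0.08), 10 of 11 for plasma and B cells (0.12), 8 of 10 for exocrine pancreas (0.14) and 6 of 6 for bile duct cells (0.21, with Cldn7 at 0.42 and Epcam at 0.37). Their part in the members' values was not tested.

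The interaction asks whether the diet difference in KO livers departs from that in WT livers. It draws on both apparent runs, and an offset of a gene between them would cancel in it only where it is the same in both genotypes. It was below 0 for 9 of the 10 genes (61.6% of all genes), with a median of -0.41 against -0.05 over all genes. No member was called, and 0% of all genes were, so that limma adjusted p-values were 0.945 or 0.993. At an unadjusted p under 0.05 stood 6 members, all below 0, and 4.08% of all genes. That count was between 3 and 7 with 1 array left out and 3 with each array centred on its median. It was 3 without standard-diet KO replicate 3, standard-diet WT replicate 1 or 2, high-fat KO replicate 2 or high-fat WT replicate 2. The share of all genes at that level was not computed for these fits. Sdf2l1 was at -0.92 (SE 0.226, 95% interval -1.41 to -0.44), Pdia6 at -0.62 (SE 0.187, interval -1.02 to -0.22) and Hyou1 at -0.57 (SE 0.188, interval -0.97 to -0.17). Creld2 followed at -0.83 (SE 0.364), Manf at -0.48 (SE 0.202) and Pdia4 at -0.34 (SE 0.153). Hspa5 (-0.35, SE 0.192), Pdia3 (-0.21, SE 0.169) and Hsp90b1 (-0.19, SE 0.153) had intervals that held 0.

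Dnajb9 was at 0.03 for the interaction, with an interval from -0.65 to 0.71, and its sign turned without the arrays that stood apart (-0.26). For the other 9 genes the sign held with each array left out, and the members' median stayed between -0.54 and -0.33. Markers of other cells had interaction values below 0 as well, with 0 called: 11 of 13 macrophage and Kupffer cell markers (median -0.20), 10 of 11 plasma and B cell markers (-0.09), 10 of 11 stellate cell and fibroblast markers (-0.12), 8 of 10 exocrine pancreas markers (-0.15), 6 of 6 bile duct markers (-0.19) and 7 of 10 endothelial markers (-0.07). The macrophage marker Cd68 was at -0.47 (SE 0.167), about the size of the members' median, with Csf1r at -0.40, Timd4 at -0.39 and Adgre1 at -0.38. Acute-phase genes were below 0 in 23 of 26 (median -0.18), and hepatocyte markers in 6 of 13 (0.02). Their part in the members' values was not tested.

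The diet difference in KO livers, the difference between genotypes on the high-fat diet and the interaction share the high-fat KO arrays and are not separate support for one another.

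The sensors and transcription factors that raise these genes did not pass the test in any comparison. Of 15 listed genes 14 were measured, and 0 were called in any of the 5 comparisons. The median diet difference in KO livers was -0.12 (range -0.27 to 0.16). Atf4, Nfya, Creb3l1 and Creb3l2 are named by the rule of the smallest p, and single values of the other genes are not given here. Atf4, the translationally controlled factor of the PERK branch, was at -0.13 (SE 0.129, limma adjusted p = 0.60). Much of the control of these factors acts on splicing, translation and cleavage, which these values do not report. The lists here were drawn up with earlier results of these data known.

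The counts of the lists in KO livers stand against 2.66% of all genes called lower and 2.45% called higher, and those in WT livers against 1.69% lower and 4.3% higher. A count of 1 in a list of this size is near that share. Among 42 other ER folding factors, 3 fell in KO livers on the high-fat diet, and the median of the list was -0.08. They were Dnajb11, which encodes the BiP partner ERdj3 (-0.53, limma adjusted p = 0.0154), Calr, the lectin chaperone calreticulin (-0.50, limma adjusted p = 0.0138), and Dnajc3, which encodes the BiP partner p58IPK (-0.38, limma adjusted p = 0.0444). In WT livers these genes differed by -0.18, -0.18 and -0.09, in the same order, and did not pass. Uggt2, a paralog of the sensor of glycoprotein folding, rose in WT livers on the high-fat diet (0.61, limma adjusted p = 0.0194), and no other gene of that list was called there. The remaining genes of the list did not pass in KO livers.

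Of 24 genes of ER-associated degradation, 1 fell and 1 rose in KO livers on the high-fat diet. Sel1l, the adaptor of the ubiquitin ligase complex, fell (-0.48, limma adjusted p = 0.0269), and Erlin1 rose (0.44, limma adjusted p = 0.0483). Syvn1, the ligase that works with Sel1l, was at -0.49 and did not pass (limma adjusted p = 0.0695). On the standard diet Syvn1 and Sel1l were at 0.38 and 0.32 in KO against WT livers (limma adjusted p = 0.502 for each), the same signs as most members. The list as a whole went the other way, with 16 of the 24 genes lower in KO livers and a median of -0.06.

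Of 33 translocon and N-glycosylation genes, 3 fell in KO livers on the high-fat diet (Srprb, Stt3b and Ssr4, median of the list -0.20), and 3 fell in WT livers. Srprb, a subunit of the receptor of the signal recognition particle, fell by about the same amount in KO (-0.61, limma adjusted p = 0.00399) and WT livers (-0.62, limma adjusted p = 0.00361). Of 31 genes of ER to Golgi transport, 3 fell in KO livers (Tmed3, Tmed9 and Copg1, median -0.12) and 2 in WT livers. Of 26 genes of the integrated stress response, 1 fell in KO livers, Cth (-0.43, limma adjusted p = 0.0331), and 1 rose in WT livers. Asns, the asparagine synthetase induced by ATF4, was at -1.08 for diet in KO livers and at -1.48 for KO against WT on the high-fat diet, and passed neither test (limma adjusted p = 0.177 and 1).

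Chaperones of other compartments were compared as well. Of 23 cytosolic chaperones, 1 fell in KO livers (Cct2, -0.37, limma adjusted p = 0.0188), and the median was -0.24. In WT livers 1 fell, again Cct2 (-0.38, limma adjusted p = 0.0166), with a median of -0.16. Of 18 mitochondrial chaperones and proteases, 1 fell in KO livers, the protease subunit gene Clpx (-0.71, limma adjusted p = 0.0118), and the median was 0.04. In these lists 0 genes were called for genotype on either diet or for the interaction. Genes of the lists that passed are named because they were called, beside up to 4 per list chosen by rule.

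**Figure D4:**
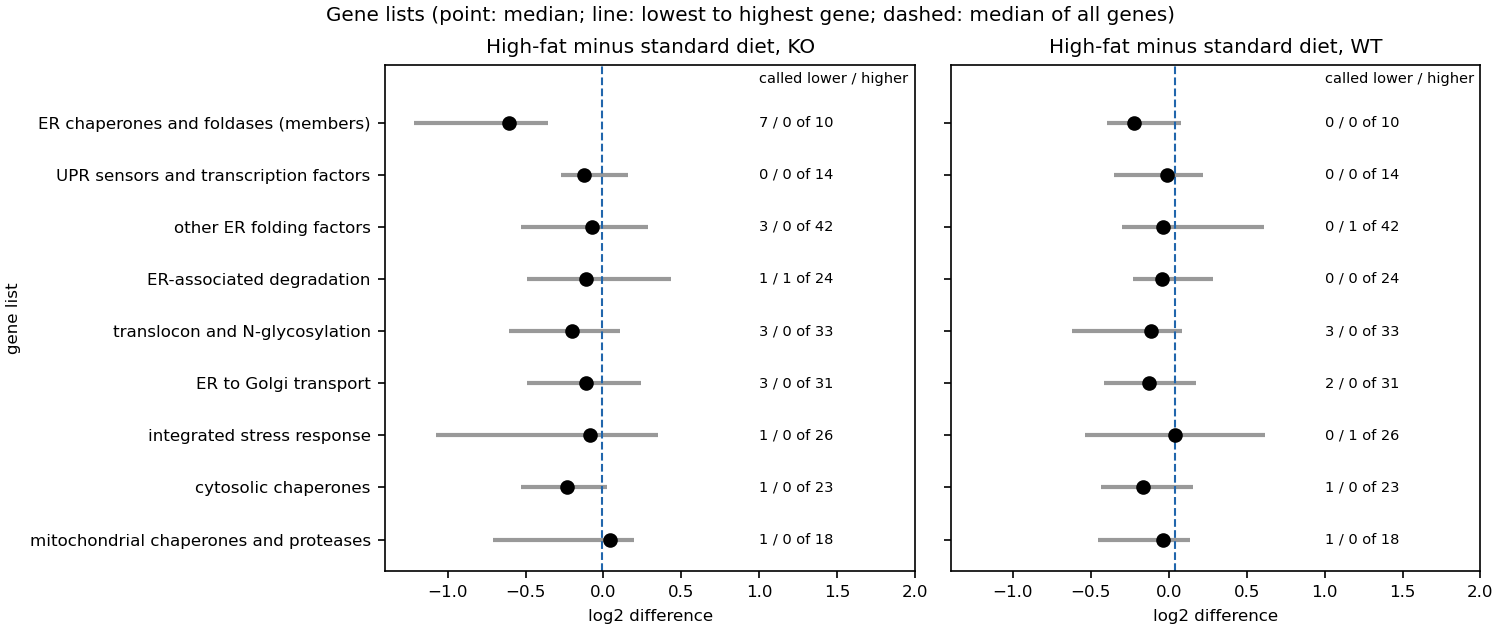
Diet differences (high-fat minus standard, log2, x axis) in KO and WT livers for the members and 8 other gene lists (y axis); points are medians, lines run from the lowest to the highest gene, the dashed line is the median of all genes, and the numbers give genes called lower and higher of those measured. In KO livers the median of the members is -0.60 and those of the other lists lie between -0.24 and 0.04.

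Genes outside the set with an exact ERSE in their window were followed too, a list made after values were seen. Of 16 measured, 12 were below 0 for diet in KO livers (median -0.34) and 4 fell, where 52.3% of all genes were below 0 and 2.66% were called lower. Calr, Canx, Dnajc3 and Ero1b also belong to the list of other ER folding factors. Derl3 and Syvn1 belong to the degradation list, and Alg12 to that of N-glycosylation. The 16 genes are thus not separate from those lists. Calr and Dnajc3 are ER chaperones that fell, with the values given above. Acacb, the acetyl-CoA carboxylase that controls fat oxidation, fell by 0.73 (SE 0.107, limma adjusted p = 0.0024), and Olfr59, an olfactory receptor gene, by 0.65 (SE 0.178, limma adjusted p = 0.049). The diet difference of Acacb in WT livers was -0.88, larger than in KO livers. In WT livers 10 of the 16 were below 0, with a median of -0.04 and 1 called. The 4 members with the exact element had KO diet differences between -1.22 and -0.36, and Sdf2l1, with no match in its window, was at -1.19.

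Markers of other cell types gave the following values for the diet comparison in KO livers. Plasma and B cells, which carry a large ER, had 11 measured markers with list means of 5.89 to 6.10 in high-fat and 5.78 to 6.00 in standard-diet KO livers, and 2 rose and 0 fell. Exocrine pancreas, which secretes heavily, had 10 measured markers with list means of 5.86 to 6.08 in high-fat and 5.84 to 6.09 in standard-diet KO livers, and 0 were called. Hepatocyte markers had list means of 13.26 to 13.34 in high-fat and 13.37 to 13.45 in standard-diet KO livers, with 1 of 13 called lower. That gene was Arg1, the arginase of the urea cycle (-0.62, limma adjusted p = 0.00428). Acute-phase genes had list means of 10.14 to 10.50 in high-fat and 10.09 to 11.39 in standard-diet KO livers, with 0 of 26 called and a median of -0.21. Below 0 lay 6 of 6 bile duct markers (median -0.16), 10 of 13 macrophage and Kupffer cell markers (-0.07) and 10 of 13 hepatocyte markers (-0.04). So did 5 of 11 stellate cell and fibroblast markers (0.05), 5 of 10 endothelial markers (0.02) and 1 of 2 red blood cell markers (0.2). Of the lists other than hepatocytes in these counts, the endothelial list had 1 gene called, Stab2, which was higher (0.41). The part of all these lists in the members' difference was not tested.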

How the data were processed

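The authors deposited log2 expression values, 1 column per array, computed by RMA in the program Affymetrix Expression Console, per the submitters' processing notes; the version and options are not given in the sources used here. RMA subtracts background, gives arrays processed together a common distribution and combines the probes of a set. No further normalization was applied. Array medians were 6.34 to 6.47, and the number of arrays limits the precision.

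Of 35557 probe sets, 21789 had 1 gene symbol in the annotation, 1621 had several and 12147 were not listed. For the 999 genes with several probe sets, the one with the highest mean was kept, which left 19938 genes. All 12 arrays entered 1 linear model with a mean for each group (R 4.3.3, limma 3.58.1). Variances were moderated by empirical Bayes with a trend on intensity, which gave 8 residual degrees of freedom and, at the median gene, 14.5 in total. Calls needed a p under 0.05 after Benjamini-Hochberg adjustment across the 19938 genes. The scripts were tested on simulated data. The 10 members and all gene lists were chosen with earlier results of these data known. Named genes are the members, up to 4 genes per list by the smallest p for genotype on the high-fat diet or for the interaction, called list genes, and the 5 genes most like the members. Alternatives were other moderation, a block for the replicate number, a fit of the compared groups alone, genes above the median level, all probe sets, quantile normalization, median centring and leaving out each array. Once values had been seen, 2 more were added, which left out both arrays that stood apart or allowed a variance for the run offset. The fit to all probe sets reads the same brightest probe set of each member as the main fit. The members' differences are therefore the same in it, and it does not test the choice of probe set. Promoter sequences are from RefSeq, GRCm38.p6. Figures were drawn with matplotlib 3.10.9.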

Additional observations from a re-analysis of the deposited data

How the results depend on the processing

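In KO livers, 7 members were called lower on the high-fat diet. Leaving out 1 array gave 2 to 7 calls, 4 without high-fat KO replicate 1 and 2 without high-fat KO replicate 2, and a variance for the run offset gave 0, in that case because the added variance widens each SE. Over all genes these settings gave 873, 360 and 5 calls in place of 1018. Other settings gave 5 (compared groups only and median centring, both without Pdia4 and Pdia6), 6 (without both arrays that stood apart), 9 (quantile normalization) or 7. The calls over all genes in these other settings are not given here. A change in the members' count therefore cannot be told from a change over all genes. In the other 4 comparisons 0 members were called in every setting that was run. The interaction was not refitted on the compared groups only, since it uses all 4.

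Replicate numbers did not pair the samples throughout: 5 of 18 same-numbered pairs correlated above 0.1 (r from -0.271 to 0.407). An array correlated best with its own number in 13 of 36 cases. The replicate 3 arrays of standard-diet KO, standard-diet WT and high-fat KO livers correlated with one another at 0.288 to 0.407. That of high-fat WT livers correlated with them at -0.271 to -0.0808. With the replicate number as a block, 7 members were called for diet in KO livers, as without it, and 0 in the other comparisons. The block changed the SE of single members. For KO minus WT on the standard diet it was 0.129 in place of 0.257 for Creld2 and 0.158 in place of 0.226 for Dnajb9. For Pdia6 it was 0.134 in place of 0.132.

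Signs turned for members near 0, and the cause was not tested. For KO minus WT on the standard diet, Hsp90b1 was 0.056 without both arrays that stood apart and Pdia3 was 0.0143 after quantile normalization. Pdia6 was -0.0022 for diet in WT livers after median centring, and Dnajb9 was -0.256 for the interaction without both arrays. With 1 array left out, KO minus WT on the standard diet was -0.15 to 0.056 for Hsp90b1, -0.0879 to 0.0848 for Pdia3 and -0.0653 to 0.392 for Dnajb9, and on the high-fat diet -0.0723 to 0.283 for Dnajb9. The diet difference in WT livers was -0.0198 to 0.191 for Pdia6, and the interaction -0.244 to 0.214 for Dnajb9.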
